A study of Mus musculus with 9 samples.

Results

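A set of 9 transcription factors known for roles in endothelial identity was followed in lymphatic endothelial cells sorted from mouse liver: the ETS factors Erg, Fli1 and Ets1, the SOXF factors Sox7 and Sox17, the Krüppel-like factors Klf2 and Klf4, the basic helix-loop-helix factor Tal1 and the MADS-box factor Mef2c. They were chosen by symbol, and all 9 were found among the 21936 protein-coding rows of the deposited table. The cells came from reporter mice with GFP knocked into the Il7 locus, carried by every group, at 2 weeks of bile duct ligation (3 libraries), at 4 weeks of bile duct ligation (3 libraries) or after a sham operation (3 libraries). Bile duct ligation closes the outflow of bile and causes cholestasis. Between 20000 and 50000 sorted cells went into each RNA extraction, and ribosomal RNA was depleted before sequencing. The sources used here do not give age, sex, strain background, the sorting gate or the interval between sham surgery and collection. The labels give the replicates as separate samples and the design text counts them as mice.

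ETS factors bind short GGAA-centred DNA elements present in the regulatory regions of many endothelial genes. ERG is the ETS factor most restricted to endothelium within tissues, FLI1 is shared between endothelium and blood cells, and ETS1 is also prominent in lymphocytes. SOX7 and SOX17 act in endothelial and arterial differentiation alongside SOX18, the SOXF member that turns on Prox1 in lymphatic development. KLF2 and KLF4 are induced by laminar flow and activate anti-inflammatory and vasoprotective genes, and both are also active in leukocytes. TAL1 forms a complex with LMO2, LDB1 and E-proteins in blood and endothelial precursors. MEF2C binds A/T-rich elements, and MEF2 proteins activated through the kinase ERK5 turn on Klf2.

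Positions of the genes are those of GENCODE M21 on build GRCm38, the assembly also called mm10. Of the ETS genes, Erg (ENSMUSG00000040732) on chromosome 16 from 95359169 to 95586593, minus strand, lies apart, and the neighbours are Fli1 (ENSMUSG00000016087) on chromosome 9 from 32422204 to 32542861, minus strand, and Ets1 (ENSMUSG00000032035) on chromosome 9 from 32636221 to 32757820, plus strand. The SOXF genes are Sox7 (ENSMUSG00000063060) on chromosome 14 from 63943673 to 63950732, plus strand, and Sox17 (ENSMUSG00000025902) on chromosome 1 from 4490931 to 4497354, minus strand. The Krüppel-like genes are Klf2 (ENSMUSG00000055148) on chromosome 8 from 72319033 to 72321656, plus strand, and Klf4 (ENSMUSG00000003032) on chromosome 4 from 55527143 to 55532466, minus strand. The last are Tal1 (ENSMUSG00000028717) on chromosome 4 from 115056426 to 115071755, plus strand, and Mef2c (ENSMUSG00000005583) on chromosome 13 from 83504034 to 83667080, plus strand.

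Of the members whose levels moved together across libraries, promoter sequences are shown for Erg, Tal1 and Mef2c. Ets1 and Sox7, which moved with them, had no window. A sequence is also shown for Klf2, which moved the other way. RefSeq windows (build GRCm38.p6) from 250 bases before to 50 bases after an annotated start were matched by symbol for 5 of the 9 members, 10 windows in all. Both strands were searched for AGGAA (ETS), ACAAT (SOX), CACCC (KLF) and the MEF2 element, and no match to one motif overlapped a match to another. Of 32851 mouse windows of this length, 66.7% held AGGAA, 31% ACAAT, 57.5% CACCC and 3.19% the MEF2 element. Positions count from the start site, with negative numbers before it. The Klf2 window (chr8:72318812-72319111, plus strand) is shown because it held a MEF2 element, in capitals, whose first base is at -118:
Klf2: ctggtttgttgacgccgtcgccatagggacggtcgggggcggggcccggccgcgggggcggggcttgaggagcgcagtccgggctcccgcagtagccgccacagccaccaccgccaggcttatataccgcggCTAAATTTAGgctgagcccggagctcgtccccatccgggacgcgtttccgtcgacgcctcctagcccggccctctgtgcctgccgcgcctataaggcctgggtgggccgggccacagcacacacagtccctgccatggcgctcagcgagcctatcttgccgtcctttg
Of the 3 Erg windows, the one at chr16:95530316-95530615 (minus strand) held a MEF2 element, in capitals, from -16, and an AGGAA match from -158:
Erg: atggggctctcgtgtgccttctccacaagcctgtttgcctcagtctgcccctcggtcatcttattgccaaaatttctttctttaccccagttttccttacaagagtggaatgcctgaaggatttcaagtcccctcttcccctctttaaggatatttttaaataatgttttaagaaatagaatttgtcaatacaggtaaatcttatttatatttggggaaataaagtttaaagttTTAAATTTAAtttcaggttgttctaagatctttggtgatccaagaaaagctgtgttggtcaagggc
The upstream Tal1 window (chr4:115056176-115056475, plus strand) held 1 AGGAA match, in capitals, from -145:
Tal1: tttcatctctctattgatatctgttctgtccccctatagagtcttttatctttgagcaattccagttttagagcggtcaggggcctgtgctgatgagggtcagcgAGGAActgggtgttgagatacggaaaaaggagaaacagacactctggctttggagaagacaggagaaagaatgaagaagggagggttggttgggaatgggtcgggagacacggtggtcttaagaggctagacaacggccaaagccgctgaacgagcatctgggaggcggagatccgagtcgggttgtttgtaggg
The most upstream Mef2c window (chr13:83503784-83504083, plus strand) held 2 AGGAA matches, in capitals, from -121 and -76:
Mef2c: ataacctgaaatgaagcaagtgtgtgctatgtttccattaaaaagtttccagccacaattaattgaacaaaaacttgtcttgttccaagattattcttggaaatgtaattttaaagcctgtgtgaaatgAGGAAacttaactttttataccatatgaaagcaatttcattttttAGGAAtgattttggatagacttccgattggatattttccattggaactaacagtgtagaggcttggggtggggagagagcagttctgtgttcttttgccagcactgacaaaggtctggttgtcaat
Left in small letters were CACCC at −19 in Klf2 and −138 in Tal1, and ACAAT at −196 and CACCC at −11 in Mef2c. All these matches describe the letters of the windows and are not evidence of binding. The downstream Tal1 window and the single Klf4 window held none of the 4 motifs.

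Libraries held between 592419 and 5314381 counted reads, recovered from the normalized counts as described under processing. The lowest was sham replicate 2, and the other 8 had at least 2259239. A single read therefore stood for 5.26 normalized counts in that library, and for 0.589 to 1.23 in the others. Sham replicate 2 correlated with the others at 0.741 to 0.828 across genes, against 0.855 to 0.957 for the 28 remaining pairs, so the members' fold changes against sham and the gene lists are also given without it. Of the defining markers of the labelled cell type, Prox1, Flt4, Lyve1 and Pdpn had reads in every library. Ccl21a lay below the filter on low values and was nearly absent, at 0.917 normalized counts in sham replicate 1 and 0 in every other library. Macrophage transcripts were measured beside them: 13 of 13 macrophage and Kupffer markers were measured, and their summed level was 34206 to 74022 normalized counts at 2 weeks, 18310 to 40628 at 4 weeks and 33536 to 79526 in sham. The 12 lymphatic markers summed to 17364 to 46989 at 2 weeks, 26907 to 46200 at 4 weeks and 7828 to 45047 in sham, and the 15 pan-endothelial markers to 7188 to 13606, 6426 to 13061 and 5983 to 18156 in the same order. Sinusoidal endothelial markers, 10 genes, summed to 9439 to 11445 at 2 weeks, 9614 to 13516 at 4 weeks and 6771 to 17282 in sham. Hepatocyte markers, 8 genes, summed to 2912 to 8248, 1122 to 17797 and 1025 to 13784 in the same order. Some cell type markers passed against sham in limma. At 4 weeks Clec4f and Timd4 of the macrophage list were lower (adjusted p = 0.0268 and 0.0105). Of its 13 genes 12 had log2 fold changes below 0. Of 7 monocyte and neutrophil markers tested, 1 passed as higher at 2 weeks and 2 at 4 weeks. Of 10 sinusoidal markers 1 passed as higher at 4 weeks. Stellate, fibroblast and smooth muscle markers, 10 genes, had log2 medians of 1.29 and 1.52 at 2 and 4 weeks, with 0 passing. Which cell types the members' transcripts came from was not tested. In bulk samples such as these, fewer cells of a type and less RNA per cell cannot be told apart.

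The members covered a wide range of abundance, and their order was nearly the same in every library. Levels between genes are compared as normalized counts per kb of annotated exon. Klf2 and Klf4 took the top 2 places, averaging 582 and 373 per kb over the 9 libraries. Klf2 was first in 6 libraries, and Klf4 was first in 4-week replicates 2 and 3 and in sham replicate 1, so these neighbours were not separated. Fli1 followed next to them in every library with a mean level of 105 per kb. Erg at 55.6 and Ets1 at 54.4 per kb came next, Erg being the higher of the pair in all 6 ligated libraries and Ets1 in all 3 sham libraries. In 2-week replicate 1 they were nearly equal, at 26.5 and 26.4 per kb, and which of them is higher depends on the exon lengths used. The ratio to Erg put all ligated libraries below all sham libraries for 0.982% of all tested genes. Sox7 was sixth throughout with 30.2 per kb. Tal1 at 18.5 and Mef2c at 14.8 per kb followed, with Mef2c above Tal1 in 4-week replicate 1. Sox17 was last in every library, averaging 1.58 per kb.

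**Figure D1:**
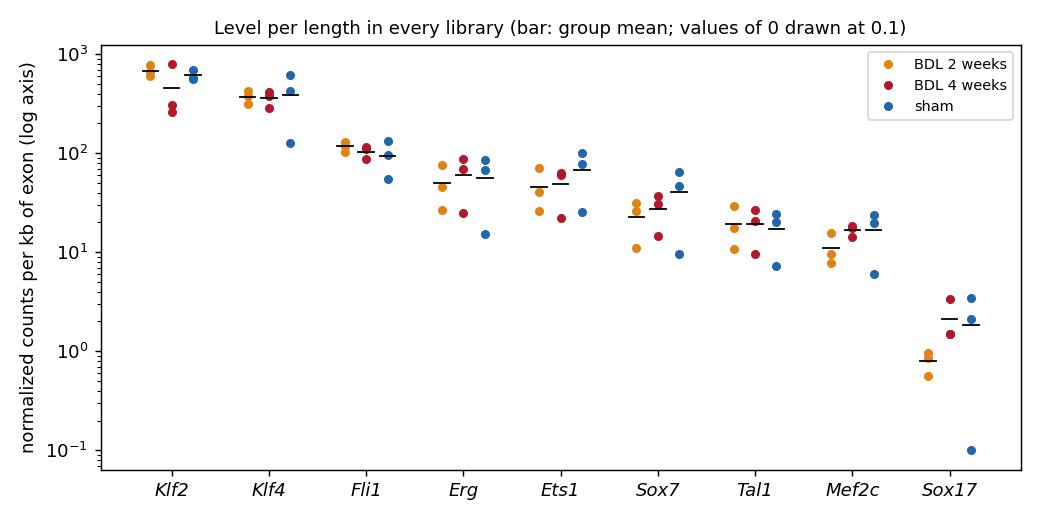
Normalized counts per kb of exon (log axis) for the 9 members, ordered by mean level. Each point is a library, colours mark the groups in the order BDL 2 weeks, BDL 4 weeks and sham, bars are group means, and the 0 of Sox17 in sham replicate 2 is drawn at 0.1. Klf2 and Klf4 lie highest and Sox17 lowest, and the groups of every other member overlap.

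In the main test 0 of the 8 members abundant enough to be tested passed the threshold in any comparison. Over the 11809 genes whose mean normalized count reached 10, limma called 2 genes (0.0169%) at 2 weeks against sham, 142 genes (1.2%) at 4 weeks against sham and 0 genes (0%) at 4 weeks against 2 weeks, at an adjusted p below 0.05. The members contributed 0 calls to each of these counts, 0 also at an unadjusted p below 0.05, and 0 in edgeR and DESeq2. With library quality weights in limma, Sox7 and Mef2c passed at 2 weeks against sham and Klf2 at 4 weeks against both sham and 2 weeks, with the values given under each gene. Those weights let 1112 of all tested genes pass at 2 weeks against sham, 1608 at 4 weeks against sham and 349 at 4 against 2 weeks. In the main test 8.55%, 13.7% and 4.02% of all genes had an unadjusted p below 0.05. The groups overlapped for each tested member in each comparison. Over all tested genes they did not overlap for 17.9%, 17% and 9.4%, and 8 members are too few to be told apart from these shares. The median log2 fold change of the 8 members was 0.09 at 2 weeks and 0.17 at 4 weeks against sham, beside 0.07 and 0.07 for all tested genes, and 0.02 beside 0.01 at 4 against 2 weeks. A miss of the threshold does not show equal levels: the 95% intervals of Erg, the widest, run from 0.346-fold to 2.94-fold at 2 weeks against sham and from 0.409-fold to 3.48-fold at 4 weeks against sham. Those of Fli1, the narrowest, run from 0.815-fold to 2.13-fold and from 0.719-fold to 1.88-fold.

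**Figure D2:**
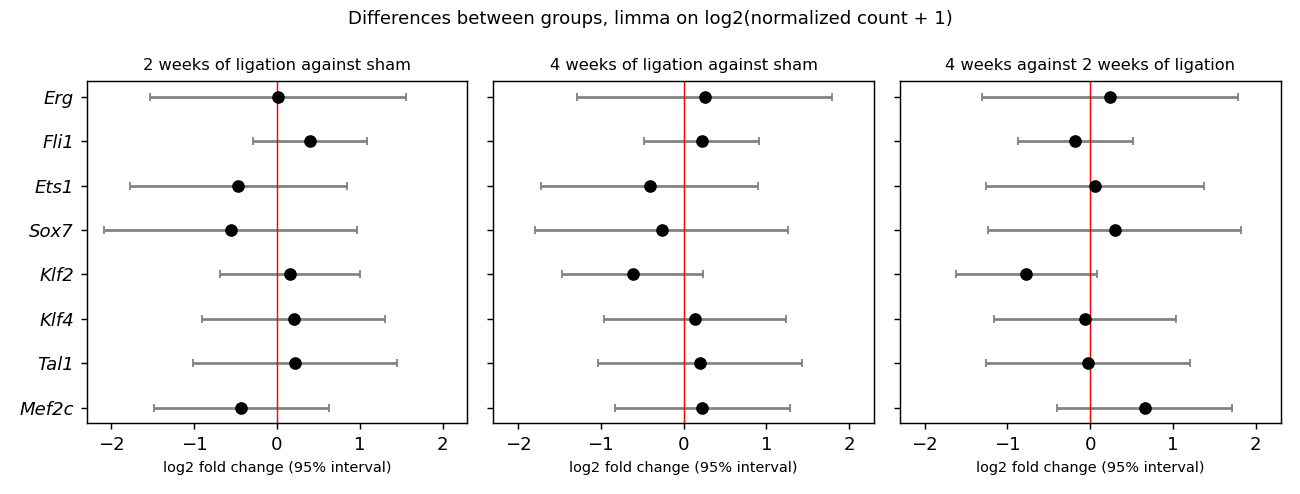
Log2 fold changes with 95% intervals for the 8 tested members, from limma on log2(normalized count + 1), in 3 comparisons; the red line marks no difference. Every interval includes 0, with Klf2 at 4 against 2 weeks (−0.77) lying nearest to excluding it.

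Erg, which maintains endothelial junctions and represses inflammatory genes, stood at 91.9, 267 and 156 normalized counts in 2-week replicates 1, 2 and 3. It stood at 87.1, 306 and 237 in the 4-week replicates and at 236, 52.6 and 299 in the sham replicates. The low library of each group, 2-week replicate 1, 4-week replicate 1 and sham replicate 2, lay below every other library of all groups. Group means were 172 ± 88.3 at 2 weeks, 210.3 ± 112 at 4 weeks and 196 ± 128 in sham (SD, n = 3 each). The log2 fold changes were 0.01 ± 0.69 SE at 2 weeks and 0.25 ± 0.69 SE at 4 weeks against sham (limma, adjusted p = 0.997 and 0.906). They became −0.76 and −0.52 without sham replicate 2, which held 10 Erg reads (adjusted p = 0.664 and 0.708).

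Ets1, which acts in angiogenesis and in lymphocyte development, repeated the library pattern of Erg. Its values were 223, 604 and 345 normalized counts at 2 weeks, 190.0, 509 and 541 at 4 weeks and 666, 216 and 854 in sham. Means were 391 ± 194 at 2 weeks, 414 ± 194 at 4 weeks and 578 ± 328 in sham (SD, n = 3 each). Sham replicates 1 and 3 exceeded all 6 ligated libraries, and sham replicate 2 fell among their lowest. The log2 fold changes of −0.47 ± 0.59 SE at 2 weeks and −0.41 ± 0.59 SE at 4 weeks did not pass (limma, adjusted p = 0.836 and 0.797). Without sham replicate 2 they were −1.07 and −1.01 and again did not pass (adjusted p = 0.506 and 0.405). Lymphocyte transcripts were near the detection limit: 0 of 12 T, NK and B cell markers reached the filter, their sum was 15.3 to 23.7 normalized counts at 2 weeks, 18.8 to 84.9 at 4 weeks and 28.0 to 36.8 in sham, and Nkg7 had 0 reads in all libraries.

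Fli1, the ETS factor shared with blood cells, varied least. It stood at 412, 457 and 361 normalized counts at 2 weeks, 308, 381 and 399 at 4 weeks and 335, 189 and 467 in sham. Means were 410.2 ± 47.9 at 2 weeks, 362 ± 48.1 at 4 weeks and 330.4 ± 139 in sham (SD, n = 3 each). Over the 8 libraries other than sham replicate 2 its highest value was 1.52 times its lowest, against 3.51 for Erg, 4.49 for Ets1 and 5.77 for Sox7. The log2 fold changes were 0.40 ± 0.31 SE at 2 weeks and 0.22 ± 0.31 SE at 4 weeks against sham (limma, adjusted p = 0.728 and 0.795), and 0.05 and −0.14 without sham replicate 2. The ratio of Fli1 to Erg per kb was 4.46, 1.71 and 2.298 in the 2-week replicates, 3.51, 1.24 and 1.67 in the 4-week replicates and 1.41, 3.58 and 1.55 in sham. The 3 high ratios belong to the 3 libraries with low Erg, 1 in each group.

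The ratio of Ets1 to Erg separated ligated from sham libraries. Per kb it was 0.993, 0.926 and 0.901 at 2 weeks, 0.892, 0.680 and 0.932 at 4 weeks and 1.16, 1.68 and 1.17 in sham. Every ligated library lay below every sham library, as was the case for the ratio to Erg of 0.982% of all tested genes. The mean log2 ratio was −0.09 at 2 weeks and −0.27 at 4 weeks, against 0.39 in sham. An exact two-sided permutation test of 3 against 3 libraries gave p = 0.1 for each time, the smallest it can give, and 0.7 after adjustment over the 14 ratios to Erg that were tested (7 members, 2 times). The ratio was singled out after its values had been seen.

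**Figure D3:**
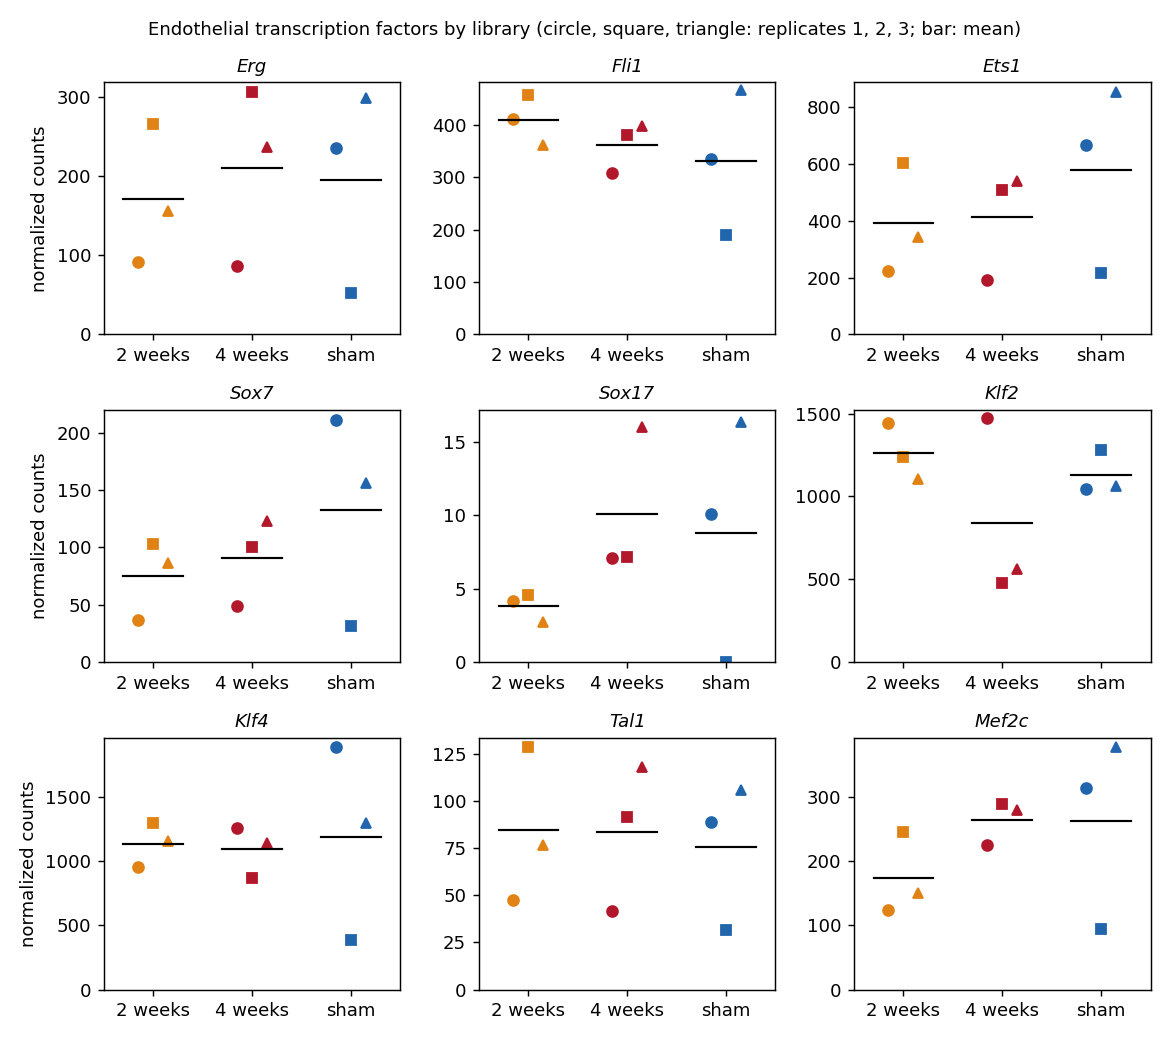
Normalized counts of the 9 members in each library, one panel per gene with its own axis starting at 0; circles, squares and triangles are replicates 1, 2 and 3, and bars are group means. Erg, Ets1, Sox7, Tal1 and Mef2c have their lowest value in the same library of each group, while Klf2 has its highest value there.

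Sox7, an activator of endothelial and vascular genes, had 36.5, 103 and 86.0 normalized counts at 2 weeks, 48.7, 100.3 and 123 at 4 weeks and 211, 31.5 and 156 in sham. Sham replicates 1 and 3 were the highest of all libraries and sham replicate 2, with 6 reads, the lowest. Means were 75.0 ± 34.3 at 2 weeks, 90.7 ± 38.1 at 4 weeks and 133 ± 91.9 in sham (SD, n = 3 each). Against sham the log2 fold changes were −0.56 ± 0.69 SE at 2 weeks and −0.26 ± 0.69 SE at 4 weeks (limma, adjusted p = 0.830 and 0.898). Without sham replicate 2 they were −1.39 and −1.09 (adjusted p = 0.373 and 0.348). With library quality weights Sox7 passed at 2 weeks with −1.28 (limma, adjusted p = 0.0440), where 1112 genes passed in all. The weights of sham replicates 1, 2 and 3 were 3.71, 0.139 and 0.834. The weighted sham level thus rested mostly on replicate 1, which had the highest Sox7 value.

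Sox17, an arterial SOXF factor that also acts in biliary development, was barely detected. It had 4.13, 4.57 and 2.71 normalized counts at 2 weeks, 7.06, 7.16 and 16.0 at 4 weeks and 10.1, 0 and 16.4 in sham, 80 reads in all. The 0 of sham replicate 2 allows up to 15.8 normalized counts, which is nearly as high as the largest value, so no order between sham and ligated libraries can be read. Each 4-week library was above each 2-week library, and these groups did not overlap for 9.4% of all tested genes. The order rests on few reads, 9, 8 and 13 at 4 weeks against 7, 7 and 4 at 2 weeks. With a mean of 7.56 normalized counts it lay below the filter of 10, and in limma without a filter it did not pass at 4 against 2 weeks (log2 fold change 1.13 ± 1.01 SE, adjusted p = 0.988). Exons of the antisense gene Gm37587 cover 16.8% of the exon bases of Sox17, and the sources used here do not say whether counting used strand. Its level is uncertain for that reason as well. No other member shared exon bases with another annotated gene.

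Klf2, the flow-induced regulator of Nos3 and Thbd, was with Klf4 one of the 2 most abundant members, and it was highest where Erg was lowest within each group. It stood at 1446, 1235 and 1102 normalized counts at 2 weeks, 1472, 476 and 564 at 4 weeks and 1045, 1278 and 1063 in sham. Replicates 2 and 3 at 4 weeks were lower than all other libraries, while replicate 1 at 4 weeks was the highest of all. Means were 1261 ± 173 at 2 weeks, 837 ± 551 at 4 weeks and 1129 ± 129 in sham (SD, n = 3 each). The log2 fold changes were 0.16 ± 0.38 SE at 2 weeks, −0.61 ± 0.38 SE at 4 weeks and −0.77 ± 0.38 SE at 4 against 2 weeks (limma, adjusted p = 0.916, 0.521 and 1). Without sham replicate 2 the values against sham were 0.25 and −0.52 (adjusted p = 0.871 and 0.610). One library decides the size of the 4-week value: without 4-week replicate 1 it was −1.12 against sham and −1.27 against 2 weeks, and neither passed (limma, adjusted p = 0.0504 and 0.117). With library quality weights, which gave that library 0.235, both passed with −0.92 and −1.11 (limma, adjusted p = 0.0189 and 0.0225). In all, 1608 and 349 genes passed in these comparisons with weights.

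Klf4, which shares many targets with Klf2 and also acts in monocytes, stood at 955, 1293 and 1153 normalized counts at 2 weeks, 1261, 872 and 1144 at 4 weeks and 1886, 384 and 1296 in sham. The ligated libraries lay in a narrow band between the extremes of the sham group. Means were 1134 ± 169.5 at 2 weeks, 1093 ± 199.7 at 4 weeks and 1189 ± 757 in sham (SD, n = 3 each). Against sham, Klf4 had log2 fold changes of 0.20 ± 0.49 SE at 2 weeks and 0.14 ± 0.49 SE at 4 weeks (limma, adjusted p = 0.916 and 0.927). Without sham replicate 2 they were −0.47 and −0.53 (adjusted p = 0.579 and 0.407). The ratio of Klf2 to Klf4 per kb was 2.498, 1.58 and 1.58 at 2 weeks, 1.93, 0.902 and 0.813 at 4 weeks and 0.915, 5.495 and 1.35 in sham, so the groups overlapped. Klf2 and Klf4 are also known as early-response genes of tissue dissociation. The 14 immediate early and dissociation genes had a mean log2 level of 11.46, 10.93 and 10.96 in the 2-week replicates, 11.65, 10.70 and 10.85 in the 4-week replicates and 11.58, 11.42 and 11.34 in sham. Their part in the values of Klf2 and Klf4 was not tested.

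Tal1 stood at 47.7, 129 and 76.5 normalized counts at 2 weeks, 41.6, 91.3 and 118 at 4 weeks and 89.0, 31.5 and 106 in sham. As with Erg, 1 library of each group was lower than all the others. Group means were 84.3 ± 41.0 at 2 weeks, 83.7 ± 38.8 at 4 weeks and 75.5 ± 39.0 in sham (SD, n = 3 each), with log2 fold changes of 0.22 ± 0.55 SE and 0.19 ± 0.55 SE against sham (limma, adjusted p = 0.919 and 0.912). Without sham replicate 2, which held 6 Tal1 reads, they were −0.32 and −0.34. The ratio of Tal1 to Erg per kb was 0.411, 0.382 and 0.387 at 2 weeks, 0.378, 0.236 and 0.394 at 4 weeks and 0.299, 0.475 and 0.280 in sham. Erythroid, megakaryocyte and mast cell markers, which belong to the blood lineages that use TAL1, summed to 31.8 to 59.6 normalized counts at 2 weeks, 34.5 to 77.5 at 4 weeks and 33.5 to 68.3 in sham over 9 genes. Of these 9 genes, 2 reached the filter, and their part in the level of Tal1 was not tested.

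Mef2c, a transducer of kinase signals in endothelium, muscle and immune cells, stood at 124, 244 and 151 normalized counts at 2 weeks, 224.5, 288 and 279 at 4 weeks and 313, 94.6 and 378 in sham. Sham replicates 1 and 3 were above all ligated libraries and sham replicate 2 was below them all. How many of all tested genes had sham replicates 1 and 3 on top, as Ets1, Sox7 and Mef2c did, was not counted. At 2 weeks, 2 of the 3 libraries were below all at 4 weeks. Means were 173 ± 63.2 at 2 weeks, 264 ± 34.5 at 4 weeks and 262 ± 148 in sham (SD, n = 3 each). The log2 fold changes were −0.43 ± 0.48 SE at 2 weeks, 0.23 ± 0.48 SE at 4 weeks and 0.66 ± 0.48 SE at 4 against 2 weeks (limma, adjusted p = 0.812, 0.868 and 1). Without sham replicate 2 the values against sham were −1.05 and −0.39 (adjusted p = 0.280 and 0.586). With library quality weights Mef2c passed at 2 weeks with −0.90 (limma, adjusted p = 0.0399), where 1112 genes passed in all. The weighted sham level again rested mostly on sham replicate 1, which had a weight of 3.71.

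The spread within groups followed a shared pattern. Erg, Ets1, Sox7, Tal1 and Mef2c, 5 of the 8 tested members, had their lowest value of each group in 2-week replicate 1, 4-week replicate 1 and sham replicate 2, as did 12% of all tested genes. Klf2 had its highest value of each group in those same libraries, as did 10.3% of all tested genes. Fli1 and Klf4 did neither. These were the libraries with the lowest pan-endothelial level of their group: the mean log2 level of the 15 markers was 7.68, 8.93 and 8.35 in the 2-week replicates, 7.90, 8.88 and 9.03 in the 4-week replicates and 8.86, 7.42 and 9.25 in sham. They also had the highest leukocyte-wide level of their group, with mean log2 levels over 6 markers of 9.73, 9.15 and 9.52 at 2 weeks, 9.82, 8.86 and 8.61 at 4 weeks and 9.08, 9.83 and 8.42 in sham. Macrophage and Kupffer markers behaved likewise, at 12.04, 10.996 and 11.53 in the 2-week, 11.03, 10.13 and 9.71 in the 4-week and 11.53, 12.18 and 10.84 in the sham replicates. In 2-week replicate 1, 4-week replicate 1 and sham replicate 2 Erg deviated from its group mean by −0.76, −1.08 and −1.54 on the log2 scale, and Klf2 by 0.21, 1.003 and 0.18. The part of endothelial and leukocyte content in the members' levels was not tested.

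**Figure D4:**
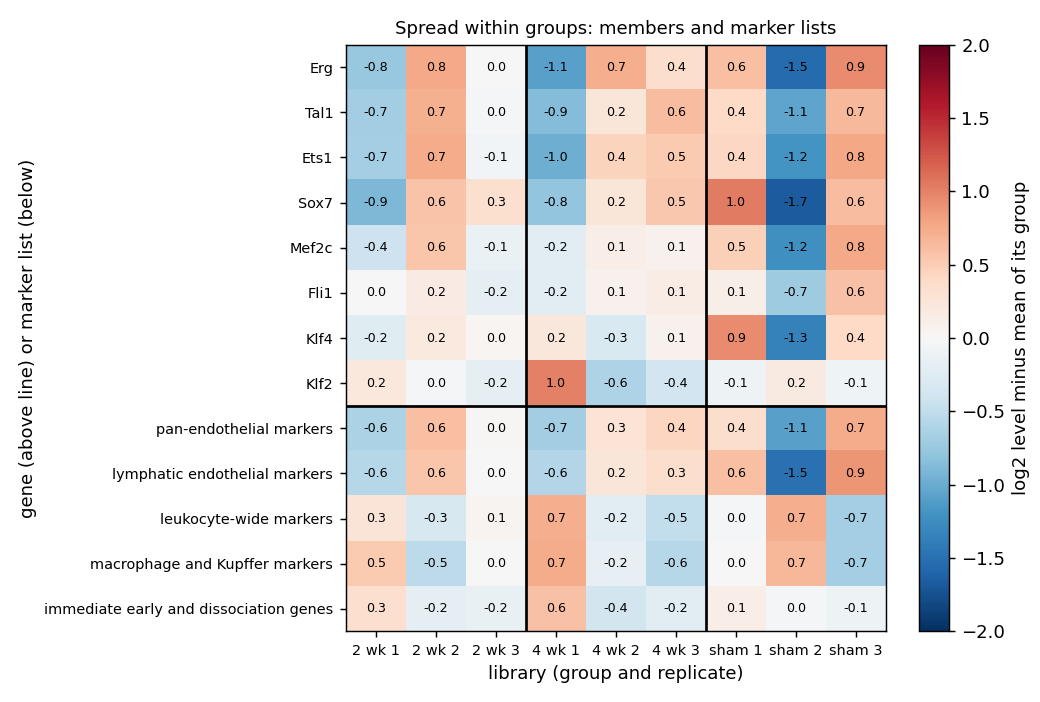
Log2 level minus the mean of its own group for 8 members (above the line) and 5 marker lists (below it) in each library; blue is lower and red is higher than the group mean. In 2-week replicate 1, 4-week replicate 1 and sham replicate 2 the rows of Erg, Tal1, Ets1, Sox7 and Mef2c and of the pan-endothelial and lymphatic lists are blue, and those of Klf2 and of the leukocyte-wide and macrophage lists are red.

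Set against the pan-endothelial level of its own library, Tal1 and Ets1 varied little within groups. On this scale, the log2 level of a member minus the pan-endothelial mean, Tal1 averaged −2.02 ± 0.10 at 2 weeks, −2.32 ± 0.18 at 4 weeks and −2.43 ± 0.07 in sham (SD, n = 3 each). Ets1 averaged 0.17 ± 0.12 at 2 weeks, −0.05 ± 0.24 at 4 weeks and 0.45 ± 0.10 in sham, and its ligated libraries again lay below all sham libraries, as did those of 1.01% of all tested genes. All 2-week values of Tal1 lay above all sham values on this scale, as did those of 7.12% of all tested genes, while its 4-week values overlapped with sham. Klf2 spread further, at 1.97 ± 0.76 at 2 weeks, 0.92 ± 1.48 at 4 weeks and 1.62 ± 1.12 in sham. In limma on these scaled values 0 of the 8 members passed in any comparison, and Ets1 had log2 fold changes of −0.27 and −0.50 against sham (adjusted p = 0.9999 and 1), and Tal1 of 0.41 and 0.10 (adjusted p = 0.9999 and 1). The scaling itself moved the median of all tested genes to 0.26 at 2 weeks against sham and to −0.27 at 4 against 2 weeks.

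Genes whose levels ran most like each member across the 9 libraries were sought among the 7749 genes whose mean normalized count reached 50, by Pearson's r of log2 levels. They are given as a description, since depth, cell content and group are shared by all genes of a library. For Erg they were Adamtsl1, Bcar1 and Adgrg3 (r from 0.983 to 0.997, and 0.969 to 0.997 without sham replicate 2). For Ets1 they were Cav2, Prkd2 and Ppm1f (0.981 to 0.989, and 0.984 to 0.993 without sham replicate 2). Cav2 encodes a caveolin, a protein of the membrane invaginations abundant in endothelium. Sox7 was most like Yap1, the transcriptional coactivator of the Hippo pathway, with Lmtk2 and Exd2 next (0.968 to 0.977, and 0.960 to 0.970 without sham replicate 2). Tal1 was most like Caskin2, Adgra2 and Sh2d3c (0.980 to 0.989, and 0.970 to 0.984 without it), Adgra2 being an adhesion receptor of Wnt signalling in vessels. Mef2c was most like Ccser2, Fhl1 and She (0.956 to 0.967, and 0.928 to 0.943 without it), and Fli1 most like Gtpbp2, Adamts10 and Tbc1d24 (0.969 to 0.978, and 0.899 to 0.921 without it). The genes nearest to Klf2 were Plekhm2, Rasgef1b and Il10ra (0.966 to 0.977, and 0.973 to 0.978 without sham replicate 2), the last encoding a chain of the interleukin-10 receptor of leukocytes. Klf4 was nearest to Rsf1, Apc and Mbd5 (0.969 to 0.977, and 0.867 to 0.929 without sham replicate 2). Sox17, on its few reads, was nearest to Ndrg3, Rgl2 and Prpf3 (0.948 to 0.959, and 0.860 to 0.887 without it).

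The relatives and partners of the members did not pass either. Of the other ETS genes 17 of 21 were tested and 0 passed in any comparison, with medians of −0.05 at 2 weeks and −0.19 at 4 weeks against sham. The lowest p belonged to Ehf, an epithelial ETS factor, at 34.3 ± 23.9 normalized counts at 2 weeks, 32.1 ± 15.6 at 4 weeks and 153 ± 47.0 in sham (SD, n = 3 each; log2 fold change −2.28 and −2.27, limma, adjusted p = 0.206 and 0.0653). Etv3, a repressor of proliferation in macrophages, stood at 403 ± 62.6, 579 ± 188 and 846 ± 284 in the same order (adjusted p = 0.392 and 0.485). Cholangiocyte markers summed to 636 to 1466 at 2 weeks, 629 to 2418 at 4 weeks and 1926 to 2960 in sham over 8 genes, and their part in Ehf and Sox9 was not tested. Of the other SOX genes 7 of 8 were tested and 0 passed, with Sox5 at 18.3 ± 6.61, 27.5 ± 12.3 and 75.8 ± 17.2 in the same order (adjusted p = 0.199 and 0.153). Sox9, also a cholangiocyte marker, stood at 74.9 ± 38.4, 65.2 ± 36.6 and 216 ± 64.4 (adjusted p = 0.405 and 0.135). Among KLF genes 11 of 13 were tested and 0 passed. Klf15, a regulator of metabolic genes, stood at 53.3 ± 25.5 and 64.0 ± 25.0 at 2 and 4 weeks, against 18.8 ± 4.64 in sham (adjusted p = 0.438 and 0.115), and Klf10 at 556 ± 33.0 and 385 ± 83.1, against 611 ± 106 (adjusted p = 0.894 and 0.230). For the TAL1 complex 9 of 10 genes were tested and 0 passed. Its bridging subunit Ldb1 stood at 335 ± 105 and 354 ± 142 at 2 and 4 weeks, against 157 ± 50.2 in sham (log2 fold change 1.09 and 1.15, limma, adjusted p = 0.459 and 0.209). The E-protein gene Tcf3 stood at 167 ± 8.83 and 129 ± 13.9, against 174 ± 17.4 in sham (adjusted p = 0.938 and 0.373). Of the MEF2 paralogs and their ERK5 and histone deacetylase regulators 9 of 10 were tested and 0 passed, the lowest p being that of Hdac9, at 173 ± 114 and 101 ± 30.5 against 279 ± 131 in sham (adjusted p = 0.646 and 0.219). Hdac4 followed at 192 ± 13.9 and 214 ± 36.9 against 149 ± 35.7 (adjusted p = 0.665 and 0.366). Another 15 of 16 endothelial transcription factors, Prox1 and Nr2f2 among them, were tested and 0 passed, with medians of −0.19 and 0.01. Gata6 among them stood at 35.6 ± 11.2 and 45.3 ± 17.4 against 60.8 ± 10.4 in sham (adjusted p = 0.586 and 0.605).

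Genes described in the literature as targets of the members were held against the same tests. Of the 19 endothelial genes described as targets of ERG, FLI1 or ETS1, 19 were tested and 0 passed. Their medians were −0.11 at 2 weeks and 0.04 at 4 weeks against sham. Most of these genes are also among the pan-endothelial markers. Individual targets went opposite ways without passing: Icam2, an adhesion molecule, stood at 45.5 ± 12.3 at 2 weeks, 43.6 ± 20.8 at 4 weeks and 141 ± 35.8 in sham (limma, adjusted p = 0.298 and 0.0822), and Vwf, the clotting factor stored by endothelium, at 79.0 ± 28.8, 148 ± 70.7 and 40.4 ± 20.6 (adjusted p = 0.593 and 0.0970). Genes described as activated by KLF2 or KLF4, 8 of 9 tested, had medians of −0.24 and −0.21 with 0 passing. Plpp3, a phosphatase that inactivates lysophosphatidic acid, stood at 255 ± 39.4 at 2 weeks, 243 ± 65.6 at 4 weeks and 461 ± 6.47 in sham (log2 fold change −0.86 and −0.96, limma, adjusted p = 0.334 and 0.0926). Dhh stood at 16.4 ± 6.87, 28.6 ± 10.5 and 33.4 ± 12.1 in the same order (adjusted p = 0.603 and 0.875). Genes described as repressed by KLF2 or KLF4, 7 of 7 tested, had medians of 0.12 and 0.74 with 0 passing, and Angpt2, the antagonist ligand of TIE2, stood at 437 ± 218 and 781 ± 148 at 2 and 4 weeks, against 229 ± 131 in sham (adjusted p = 0.625 and 0.122). Edn1, the vasoconstrictor endothelin, stood at 34.3 ± 4.27 and 57.2 ± 36.3, against 14.1 ± 7.66 in sham (adjusted p = 0.586 and 0.229). Other genes of this list had lower means at 4 weeks than in sham, among them Vcam1, an adhesion molecule for leukocytes, at 6436 ± 1216 at 2 weeks, 3125 ± 2224 at 4 weeks and 5929 ± 999.9 in sham (log2 fold change 0.12 and −1.15, limma, adjusted p = 0.948 and 0.298), Icam1 (−0.70 at 4 weeks, adjusted p = 0.577) and Ccl2 (−0.12, adjusted p = 0.948), which were named after their values were seen. Of genes described as SOXF targets 7 of 8 were tested and 0 passed. Acvrl1, the BMP9 receptor ALK1, had the lowest p, at 306 ± 62.0 at 2 weeks, 207 ± 56.3 at 4 weeks and 496 ± 44.7 in sham (log2 fold change −0.71 and −1.29, limma, adjusted p = 0.491 and 0.0513), followed by Notch4 at 42.5 ± 14.2, 62.2 ± 22.02 and 32.5 ± 9.98 (adjusted p = 0.795 and 0.326). The medians of all tested genes were 0.07 in both comparisons.

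Leaving out sham replicate 2 moved the lists that hold endothelial genes, and lists of other cell types as well. The median of the hepatocyte markers went from 0.35 to 1.13 at 2 weeks and from 0.665 to 1.57 at 4 weeks against sham. That of the macrophage and Kupffer markers went from −0.82 to −0.33 at 4 weeks. The medians of all tested genes became 0.02 at 2 weeks and 0.005 at 4 weeks. The medians of the ERG, FLI1 or ETS1 targets became −0.73 at 2 weeks and −0.57 at 4 weeks against sham, the same as those of the pan-endothelial markers. All of those markers except Ecscr are in the target list and make up most of it, so these medians are not separate results. Vwf then passed at 4 weeks, where it was 2.23 higher on the log2 scale than in sham (adjusted p = 0.0491 in limma), and Icam2, at −1.98, did not (adjusted p = 0.0774). Vwf was the only gene of the family, partner and target lists to pass against sham without that library. The medians at 2 and 4 weeks became −0.64 and −0.73 for genes activated by KLF2 or KLF4, 0.13 and 0.57 for those repressed by them, and −0.48 and −0.58 for SOXF targets. They were −0.13 and −0.27 for the other ETS genes, −0.92 and −0.86 for the other SOX genes, −0.07 and −0.31 for the other KLF genes, −0.12 and −0.29 for the TAL1 complex, 0.20 and 0.24 for the MEF2 list and −0.53 and −0.38 for the other endothelial transcription factors. Ehf, at −2.56 and −2.55, and Acvrl1, at −0.66 and −1.24, did not pass (adjusted p at 4 weeks = 0.0556 and 0.0796). For the Ets1 to Erg ratio the step could not change the order, since all ligated libraries already lay below every sham library, so it is no test of that order. It does bear on the size of the difference. Sham replicate 2 had the highest ratio, 1.68 per kb against 1.16 and 1.17 in sham replicates 1 and 3, from 41 Ets1 and 10 Erg reads.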

How the data were processed

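RNA was sequenced from liver cells sorted as lymphatic endothelium in 9 samples, 3 per group. The submitters' processing notes name DESeq2 1.22.1, StringTie 1.3.3b, HISAT2 2.1.0 and Trim Galore 0.5.0, with mouse build mm10. Their order, settings, annotation release and use of strand are not given in the sources used here. Values in the deposited table are a normalized signal: each library's counts over its own size factor, as the steps of the values show. Divided by the lowest nonzero entry of their column, all 197424 values came out whole (100% within a tolerance of 0.001), so whole reads were recovered.

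The main test was limma 3.58.1 (R 4.3.3) on log2(normalized count + 1), with 1 mean per group over 9 samples, a trended empirical Bayes fit, two-sided p-values adjusted by Benjamini and Hochberg's method across 11809 genes with a mean of at least 10. Fold changes of low genes are understated on this scale. edgeR 4.0.16 and DESeq2 1.42.0 ran on recovered reads. Alternatives changed the pseudocount, filter, scaling, weights, samples and replicate block. The members, lists, tests and named genes (the 2 lowest p of a list where none passed) were chosen with earlier results of these data known; 1 gene that the rule names is not reported here. Replicate pairs differed beyond sampling noise (chi-square per degree of freedom 6.68 to 45.9). Exon lengths came from GENCODE M21 (GRCm38), which held 21817 of the gene IDs. The 95% intervals of fold changes come from limma and reflect the spread between samples; floors (3 reads) cover counting error only. On simulated counts over 11736 genes for 4 weeks against sham, limma called 4 of 72 genes changed 2-fold, 35 of 58 changed 4-fold and 55 of 66 changed 8-fold; for 2 weeks against sham, over 11748 genes, 3 of 77, 27 of 52 and 53 of 63. Where nothing states separate preparations, p-values measure the spread between these samples.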

Additional observations from a re-analysis of the deposited data

Results flagged for a closer look

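Sox17 lay below the sham mean of log2 levels in every 2-week library and above it in every 4-week library, with a log2 difference of 1.134 at 4 against 2 weeks; the difference between the times did not pass in limma without a filter on low values (adjusted p = 0.988), and the placing about the sham mean rests on the 0 of sham replicate 2, since 4-week replicates 1 and 2 (7.06 and 7.16 normalized counts) lay below both other sham libraries (10.1 and 16.4).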

How the results depend on the processing

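Each log2 fold change of the 8 tested members was recomputed under 20 alternatives, 480 values in all. Of these, 431 kept their direction and their side of the threshold, 45 changed sign without passing, and 4 passed with library quality weights. Those weights lowered sham replicate 2 and 4-week replicate 1 most and raised sham replicate 1 most, to 3.71. At 2 weeks against sham the sign changed for Erg (−0.51), Klf4 (−0.55) and Tal1 (−0.13) with weights, for Erg (−0.27) and Klf4 (−0.0935) in edgeR and for Erg (−0.23) and Klf4 (−0.0857) in DESeq2. At 4 weeks against sham it changed for Klf4 (−0.73) and Mef2c (−0.16) with weights, for Klf4 (−0.14) and Mef2c (−0.0333) in edgeR and for Klf4 (−0.13) and Mef2c (−0.0212) in DESeq2. At 4 against 2 weeks it changed for Ets1 with TMM (−0.0488), for Erg (−0.0436) and Ets1 (−0.23) with pan-endothelial scaling, and for Tal1 with weights (0.25), edgeR (0.00456) and DESeq2 (0.000802). The causes were not tested.

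Leaving out 1 library at a time gave, at 2 weeks against sham, −0.76 to 0.48 for Erg, −1.07 to −0.0757 for Ets1, −1.39 to −0.0360 for Sox7, −1.05 to −0.0533 for Mef2c, −0.47 to 0.67 for Klf4 and −0.32 to 0.56 for Tal1. At 4 weeks against sham it gave −0.52 to 0.79 for Erg, −0.14 to 0.51 for Fli1, −1.01 to 0.0799 for Ets1, −1.09 to 0.26 for Sox7, −0.53 to 0.61 for Klf4, −0.34 to 0.63 for Tal1 and −0.39 to 0.61 for Mef2c. At 4 against 2 weeks it gave −0.14 to 0.78 for Erg, −0.28 to 0.55 for Ets1, −0.15 to 0.69 for Sox7, −0.18 to 0.0948 for Klf4 and −0.37 to 0.41 for Tal1.

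The count of all genes passing was 2 at 2 weeks against sham, and 6 with pan-endothelial scaling, 1 with only the groups compared, 1112 with weights, 211 in DESeq2 and 0 to 14 with 1 library left out. At 4 weeks against sham it was 142, and 20, 53, 1608, 573 and 9 to 173 under the same alternatives. At 4 against 2 weeks it was 0, and 1 with a filter at a mean of 50, 1 with TMM, 349 with weights, 76 in DESeq2, 0 in edgeR and 0 to 2 with 1 library left out. On recovered reads edgeR called 2 and 167 genes at 2 and 4 weeks against sham. With the replicate number as a block the counts were 2, 84 and 0, and no member's call changed. The numbers showed no clear pairing of samples: deviations of same-numbered libraries correlated at −0.445 to 0.228, and 2 of 9 libraries correlated best with their own number. With 3 libraries per group these correlations cannot settle whether same-numbered libraries shared a preparation. Depth limits the values of Sox17 and of sham replicate 2.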
